A study of Mus musculus with 7 samples.

Results

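The miRNAs described here are the 9 products listed under the names mmu-miR-17, mmu-miR-18a, mmu-miR-19a, mmu-miR-19b, mmu-miR-20a and mmu-miR-92a of the miR-17-92 cluster and mmu-miR-106b, mmu-miR-93 and mmu-miR-25 of the miR-106b-25 cluster (mmu, for mouse, is left out below). They were chosen by name and not by their measured values, although earlier results of these data were known. They are 9 of the 757 miRNAs named in the deposited tables. Small RNA of mouse hippocampus was sequenced in 7 libraries made from pooled tissue of adult male C57BL/6 mice of 3 to 5 months. NIPP1* mice were double transgenic for the PP1 binding domain of NIPP1, a nuclear inhibitor of protein phosphatase 1 (PP1), fused to EGFP behind a tetO promoter, and for the reverse transactivator rtTA2 behind the CaMKIIalpha promoter, which is active in forebrain neurons. Doxycycline in the diet switched the transgene on, and wild-type littermates were the controls. Trained mice explored unfamiliar objects in an object recognition (NOR) task, and non-trained mice were habituated to the same arena without objects. By the labels, 1 library came from non-trained controls, 1 from non-trained NIPP1* mice, 3 from trained controls and 2 from trained NIPP1* mice. The deposited group means of trained mice are matched by the libraries labelled as the other trained group, as detailed below. The labels are followed here, so the genotype named for any trained library is uncertain. How mice were assigned to the libraries of a group is not given in the sources used here, so the spread between libraries of a group may be technical, and every p-value measures that spread alone.

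A miRNA is cut from a hairpin in a longer transcript and loaded as a single strand into Argonaute, where its seed, the bases at positions 2 to 8, pairs with target mRNAs. The miR-17-92 cluster is a polycistron driven by Myc and E2F, known for promoting proliferation and survival of dividing cells, and in brain for its role in neural progenitors, including those of the adult dentate gyrus. The miR-106b-25 cluster is a relative of it in the gene of Mcm7, a subunit of the replicative helicase, and a further copy of the cluster lies on the X chromosome. Either arm of a hairpin can give a stable product, and the rule took the listed names to be the guide strands, the arm that is loaded most often.

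The mature sequences of the 9 members, given here because their seeds divide them into 4 families that run across both clusters, matched the mm9 sequence at every locus and were taken from RefSeq (GRCm38.p6). Bases 2 to 8, the seed, are in capitals.
miR-17: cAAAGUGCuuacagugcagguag
miR-20a: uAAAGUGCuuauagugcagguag
miR-106b: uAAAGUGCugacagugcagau
miR-93: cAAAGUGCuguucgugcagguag
miR-18a: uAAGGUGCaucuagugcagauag
miR-19a: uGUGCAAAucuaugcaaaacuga
miR-19b: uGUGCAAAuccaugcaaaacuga
miR-92a: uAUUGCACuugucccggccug
miR-25: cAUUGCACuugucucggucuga

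The family with the seed AAAGUGC, which is known to act on cell cycle inhibitors and pro-apoptotic mRNAs, held 4 members, miR-17, miR-20a, miR-106b and miR-93. The seed GUGCAAA of miR-19a and miR-19b was shared by these 2 members, and AUUGCAC by miR-92a and miR-25. The seed AAGGUGC belonged to miR-18a alone among the members. Counted from the 5′ end, miR-19a and miR-19b differed at a single base, U11C, and miR-17 and miR-20a at C1U and C12U. Reads of such close relatives could have been shared between them by the mapping, so the division of reads between miR-19a and miR-19b, and that among miR-17, miR-20a and their X chromosome relatives, is uncertain.

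In mm9 the 6 hairpins of the miR-17-92 cluster spanned 836 bp of chromosome 14 on the plus strand, all in exons of the non-coding host gene Mir17hg (chr14:115442101-115445949). Their mature products lay at chr14:115442906-115442928 (miR-17), chr14:115443089-115443111 (miR-18a), chr14:115443270-115443292 (miR-19a), chr14:115443405-115443427 (miR-20a), chr14:115443580-115443602 (miR-19b) and chr14:115443698-115443718 (miR-92a). The 3 hairpins of the miR-106b-25 cluster spanned 498 bp on the minus strand of chromosome 5 within Mcm7 (chr5:138605811-138613650). Their products lay at chr5:138607015-138607035 (miR-106b), chr5:138606802-138606824 (miR-93) and chr5:138606560-138606581 (miR-25). The hairpin of miR-106b was intronic, and those of miR-93 and miR-25 were intronic except in a single retained-intron transcript, of which they were exonic.

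The sequences of miR-19b and miR-92a occur a second time on the X chromosome, at chrX:50095168-50095190 and chrX:50095031-50095051 on the minus strand. The copies of a miRNA are told apart only by the bases that follow, here shown in capitals.
miR-19b, chromosome 14: ugugcaaauccaugcaaaacugaCUG
miR-19b, chromosome X: ugugcaaauccaugcaaaacugaUUG
miR-92a, chromosome 14: uauugcacuugucccggccugUUG
miR-92a, chromosome X: uauugcacuugucccggccugAGG

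The levels are given as reads per 1000000 miRNA reads of a library (RPM), and the totals were 7285261 to 10017770 miRNA reads per library. For miR-19b both loci carried the same signal, with an X to chromosome 14 ratio of 1.00 to 1.00 in the 7 libraries, so its reads had been assigned to both and the loci cannot be told apart. For miR-92a they differed. The chromosome 14 locus of miR-92a stood at 142 RPM in the non-trained control library, 151.5 RPM in the non-trained NIPP1* library, 132.5, 189 and 180.0 RPM in trained control replicates 1, 2 and 3, and 152 and 120.1 RPM in trained NIPP1* replicates 1 and 2. Its X chromosome locus stood, in the same order, at 17.1, 22.6, 21.5, 30.3, 26.6, 18.9 and 16.7 RPM. The chromosome 14 locus was thus higher in every library, by 7.06-fold on average (SD 0.832, n = 7 libraries), with a range of 6.17 to 8.31. The deposited tables give miR-92a as the mean of both loci, and this mean entered the tests, while levels and make-up below use the chromosome 14 locus.

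**Figure D1:**
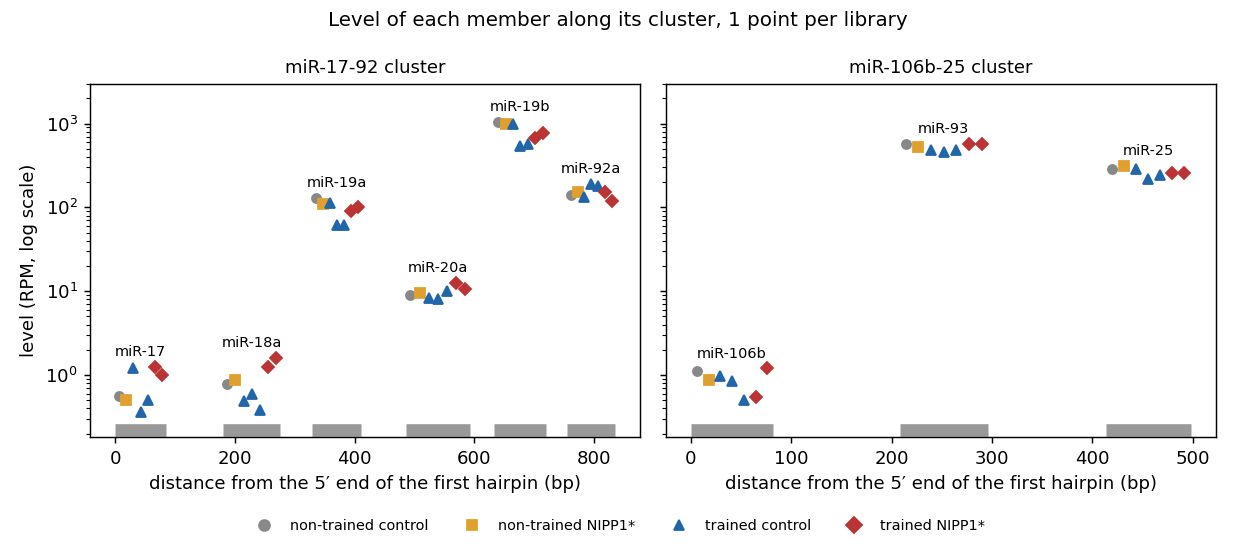
Level of each member in RPM (log axis) against the distance of its hairpin from the 5′ end of the cluster in bp, with 1 point per library, ordered within a hairpin from the non-trained control at the left to trained NIPP1* replicate 2 at the right. Grey bars mark the hairpins. miR-19b stands highest, at 540.1 to 1052 RPM, and miR-17, miR-18a and miR-106b lowest, at 0.36 to 1.6 RPM.

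The levels of the members ran from 0.770 to 799 RPM within the miR-17-92 cluster and from 0.867 to 525 RPM within the miR-106b-25 cluster, as means of the 7 libraries. The most abundant member was miR-19b, with a mean of 799 RPM (SD 213, n = 7 libraries), and it ranked 74 among the 756 mature sequences. miR-93 followed with 525 RPM (SD 47.7), then miR-25 with 265 RPM (SD 31.5). The chromosome 14 locus of miR-92a had a mean of 152 RPM (SD 24.8) and miR-19a of 96.0 RPM (SD 26.3). miR-20a had 9.74 RPM (SD 1.52). The lowest were miR-106b with 0.867 RPM (SD 0.263), miR-18a with 0.853 RPM (SD 0.434) and miR-17 with 0.770 RPM (SD 0.372), which ranked 501, 503 and 512.

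The order held in every library from miR-19b through miR-93 and miR-25 to the chromosome 14 locus of miR-92a, miR-19a and miR-20a, although the ranges over the libraries overlapped between miR-19b and miR-93 and between miR-92a and miR-19a. With miR-92a as the mean of both loci, miR-19a was higher than miR-92a in 5 of 7 libraries. The 3 lowest members did not differ beyond their spread. miR-106b was above miR-18a in 4 of 7 libraries, and miR-18a above miR-17 in 4 of 7. These levels are shares of reads, and ligation in small RNA libraries favours some ends over others, so that a difference in RPM between members is not a difference in molecules.

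The 3 lowest members rested on few reads. miR-17, the founding member of the cluster, had 5 reads in the non-trained control library, 4 in the non-trained NIPP1* library, 10, 3 and 4 in the trained controls and 9 and 10 in trained NIPP1* mice. miR-18a, whose seed differs at one base from that of miR-17, had 7 reads in each non-trained library, 4, 5 and 3 in the trained controls and 9 and 16 in trained NIPP1* mice. miR-106b had 10 and 7 reads in the non-trained libraries, 8, 7 and 4 in the trained controls and 4 and 12 in trained NIPP1* mice. All 3 had a mean under the 10 reads required for a test, so 6 of the 9 members were tested, and these 3 entered no test between groups.

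The arm named as the guide was not the more abundant arm in every hairpin. For miR-106b the opposite arm, miR-106b*, had 2801 reads summed over the libraries against 52 of miR-106b, so the named arm made up 1.82% of both (exact binomial 95% interval 1.36 to 2.38%). The opposite arm was higher in 7 of 7 libraries. For miR-17 the opposite arm, miR-17*, had 237 reads against 45, a share of 15.96% for the named arm (11.9 to 20.8%), and it too was higher in 7 of 7 libraries. For miR-18a the arms were closer, with 80 reads of miR-18a* and 51 of miR-18a, and the opposite arm was higher in 5 of 7 libraries. By reads, the named arm was thus the minor product of the miR-106b and miR-17 hairpins in these libraries. Which strand is loaded was not measured, and the limits on comparing RPM between sequences and on miR-17 and its relatives hold here too. As PCR copies of a molecule are counted as reads, these intervals describe counting error and no other error.

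The arm that carried most of the reads of the miR-106b and miR-17 hairpins is printed here with its seed in capitals, since it has another seed than the named arm.
miR-106b*: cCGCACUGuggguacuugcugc
miR-17*: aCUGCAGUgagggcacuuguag
miR-106b* had 43.9 RPM in the non-trained control library, 52.3 RPM in the non-trained NIPP1* library, 47.2, 49.6 and 47.1 RPM in the trained controls and 48.9 and 46.3 RPM in trained NIPP1* mice. The non-trained libraries were the lowest and the highest of this narrow range, with the trained groups overlapping between them, and the SD of its log2 level over the 7 libraries (0.08) was below that of all but 2.94% of the 476 tested miRNAs. miR-17* ranged from 3.23 to 5.08 RPM.

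In the other 5 hairpins with both arms listed, the named arm carried nearly all reads. Its share was 91.1% for miR-20a (88.5 to 93.2%), 99.9% for miR-19b, 99.2% for miR-92a at its chromosome 14 locus, 98.9% for miR-93 and 99.7% for miR-25. The opposite arm of miR-93, miR-93*, ranged from 4.48 to 8.05 RPM, and those of miR-20a, miR-19b, miR-92a and miR-25 stayed at or below 2.36 RPM in every library. An opposite arm of miR-19a was not analysed here. 

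**Figure D2:**
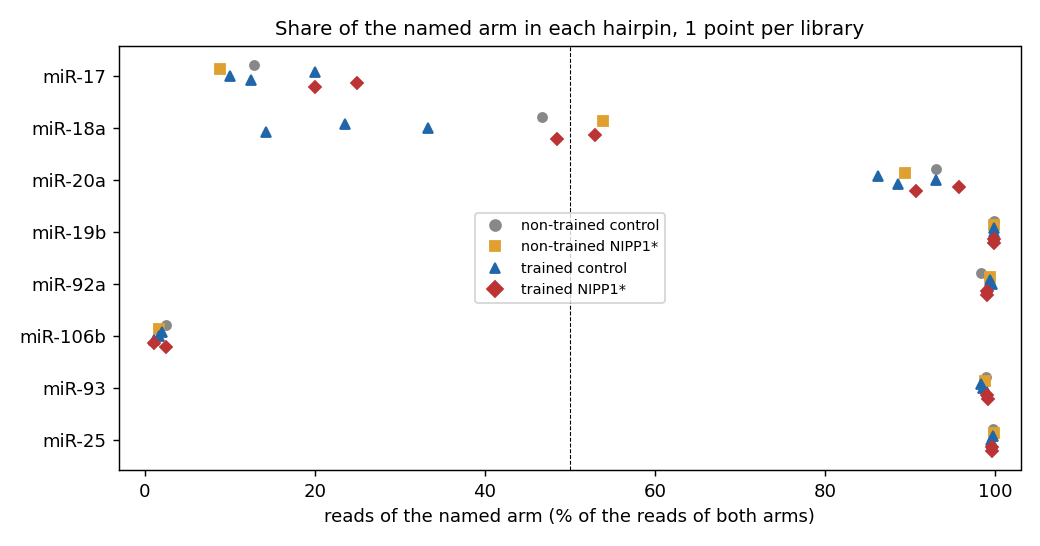
Share of the named arm in the reads of both arms (percent, horizontal axis) for the 8 hairpins with both arms listed, with 1 point per library coloured by group and a dashed line at equal arms. miR-106b lies at 1.08 to 2.52% and miR-17 at 8.89 to 25%, while miR-19b, miR-92a, miR-93 and miR-25 lie above 98%.

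The make-up of the miR-17-92 cluster differed between libraries. The 6 products summed to 1335 RPM in the non-trained control library, 1250.2 RPM in the non-trained NIPP1* library, 1255, 800.2 and 818 RPM in trained control replicates 1, 2 and 3, and 936 and 1017 RPM in trained NIPP1* replicates 1 and 2. The sum was lowest in trained control replicates 2 and 3, and trained control replicate 1 stood with the non-trained libraries. miR-19b held 78.8%, 78.2%, 79.5%, 67.5%, 69.1%, 72.3% and 76.9% of the sum in the same order. All its reads are counted here, as its loci cannot be told apart, while miR-92a is counted by its chromosome 14 locus alone. The chromosome 14 locus of miR-92a held 10.6%, 12.1%, 10.6%, 23.7%, 22%, 16.2% and 11.8%. Its share was therefore highest in the libraries in which that of miR-19b was lowest. miR-17, miR-18a and miR-20a each held at most 1.34% in any library.

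**Figure D3:**
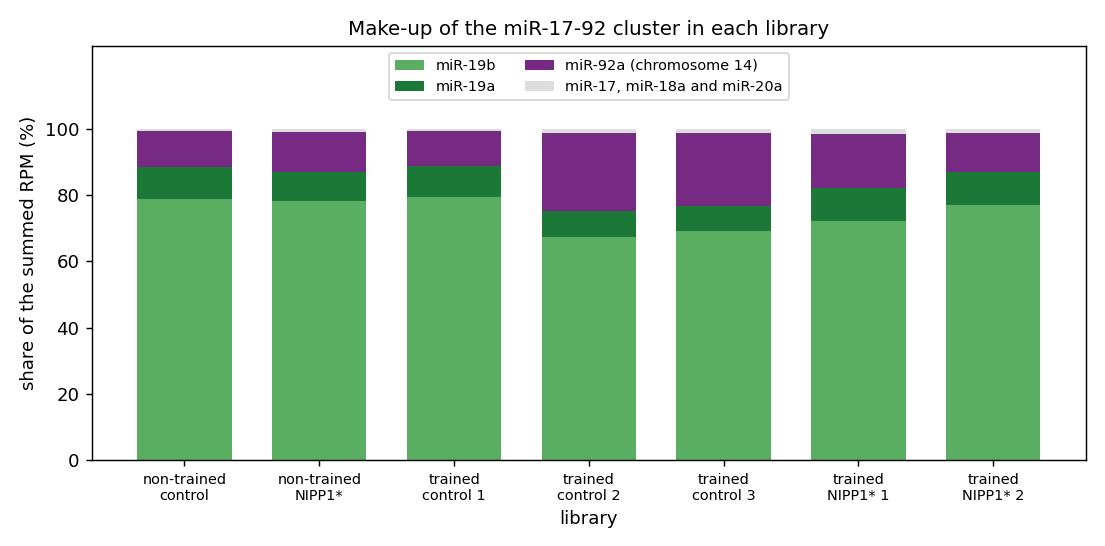
Stacked bars of the share of each product in the summed RPM of the miR-17-92 cluster (percent, vertical axis) in each of the 7 libraries. The share of miR-92a is 23.7% and 22% in trained control replicates 2 and 3 and at most 16.2% in the other 5 libraries. miR-19b is counted with all its reads, which were assigned to both of its loci, and miR-92a by its chromosome 14 locus alone.

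The miR-106b-25 cluster was steadier. It summed to 863 and 830.5 RPM in the non-trained control and NIPP1* libraries, to 776, 682 and 727 RPM in the trained controls and to 825 and 836 RPM in trained NIPP1* mice. The highest library was 1.27-fold above the lowest, against 1.67-fold for the miR-17-92 cluster. miR-93 held 62.6 to 69.2% of the sum, miR-25 30.6 to 37.3% and miR-106b at most 0.144%.

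The products of a single cluster did not keep a common ratio. miR-19b stood 8.38-fold above miR-19a (SD 0.670, n = 7 libraries), and this ratio stayed between 7.37 and 9.15. The SD of its log2 value was 0.12, smaller than for all but 4.13% of the 50721 pairs that can be formed from the 319 miRNAs that averaged 100 reads or more, whose median was 0.28. As the division of reads between miR-19a and miR-19b is uncertain, this ratio may in part reflect the mapping, which was not tested. miR-93 to miR-25, which share a transcript but not a seed, gave a ratio of 1.996 (SD 0.228) with an SD of 0.17, below which 16.4% of all pairs lay. The ratio of miR-19b to the chromosome 14 locus of miR-92a, whose hairpins are adjacent, went from 2.85 in trained control replicate 2 to 7.53 in trained control replicate 1, both in the same group. The SD of its log2 value was 0.59, above that of 91.6% of all pairs, and for miR-19a and miR-92a it was 0.63, above that of 93.2%. Pairs share their libraries and miRNAs, and these shares are a description.

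Summed by seed, the range over the libraries differed between families. The GUGCAAA members summed to 602 to 1182 RPM (1.97-fold). The AAAGUGC members, nearly all of it miR-93, summed to 473 to 592 RPM (1.25-fold). The AUUGCAC members summed to 376 to 461 RPM (1.23-fold), a narrower range than that of miR-92a at its chromosome 14 locus (1.58-fold) or miR-25 (1.43-fold) taken singly. This sum is of members only and not of all miRNAs with the seed. Those at other loci, miR-92b, miR-32 and miR-367, summed to 461 RPM in trained NIPP1* replicate 2, their lowest, and to 804 RPM in trained control replicate 2, their highest. miR-18a, the sole member with AAGGUGC, spanned 0.38 to 1.6 RPM (4.21-fold), from 3 to 16 reads.

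**Figure D4:**
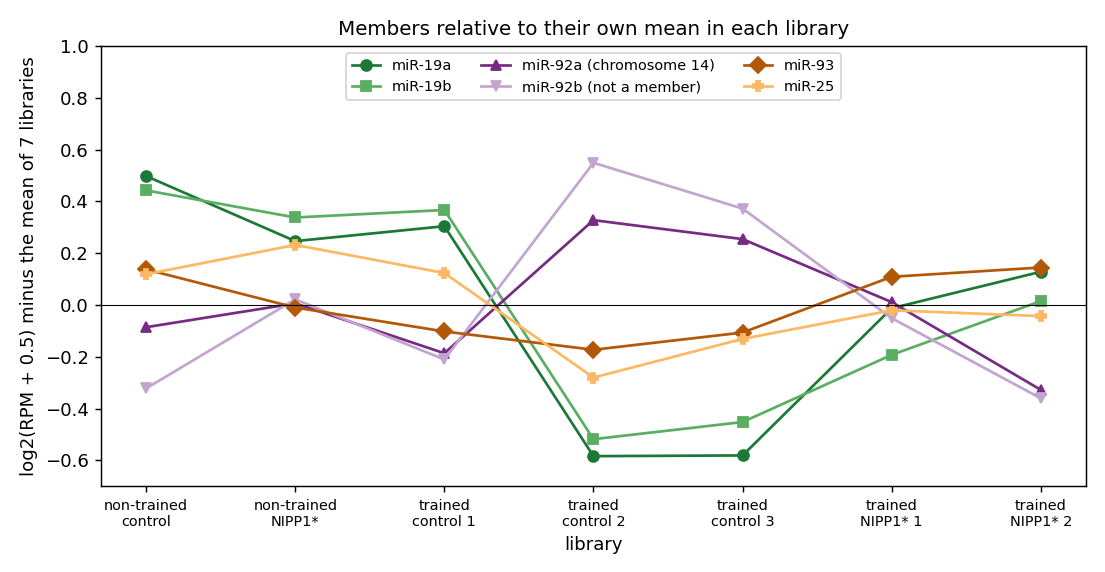
Level of miR-19a, miR-19b, miR-92a at its chromosome 14 locus, miR-93, miR-25 and the non-member miR-92b in each library, as log2(RPM + 0.5) minus the mean of the 7 libraries. In trained control replicates 2 and 3, miR-19a and miR-19b lie 0.45 to 0.58 below their means, and miR-92a 0.33 and 0.25 above its mean.

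In single libraries, miR-19a had 131 RPM in the non-trained control, 110.0 RPM in the non-trained NIPP1* library, 114.5, 61.7 and 61.8 RPM in the trained controls and 91.8 and 101.3 RPM in trained NIPP1* mice. miR-19b had 1052, 978, 998, 540.1, 566, 677 and 782 RPM in the same order. Both were high in the non-trained libraries and in trained control replicate 1, low in trained control replicates 2 and 3 and between these in trained NIPP1* mice. The 3 trained controls therefore spanned more than the gap between the trained groups. miR-93 had 576 and 519.8 RPM in the non-trained control and NIPP1* libraries, 487.5, 464 and 486 RPM in the trained controls and 564 and 579 RPM in trained NIPP1* mice. miR-25 had 286, 309.8, 287, 217, 241, 260.0 and 256 RPM, and its trained groups overlapped. miR-20a had 9.11, 9.41, 8.41, 8.02, 9.98, 12.5 and 10.8 RPM, with both trained NIPP1* libraries above every other library.

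For 3 of the 6 tested members, miR-19a, miR-19b and miR-92a, the levels in trained control replicates 2 and 3 moved with base composition. The GC content was 34.8% for miR-19a and 39.1% for miR-19b, against 57.1% for miR-92a, with a median of 47.8% over the 476 tested miRNAs. Across these 476 miRNAs, the Pearson correlation of GC content with the log2 deviation of a library from the mean of all libraries was 0.35 in both trained control replicates 2 and 3, −0.23 in trained control replicate 1, −0.26 and 0.10 in the non-trained control and NIPP1* libraries, and −0.28 and −0.20 in trained NIPP1* replicates 1 and 2. The values share libraries, and miRNAs are not independent, so this is a description. In trained control replicate 2 the 122 miRNAs with a GC content up to 40.9% had a median deviation of −0.13 and the 120 with at least 57.1% of 0.20, and in trained control replicate 3 these were −0.21 and 0.10. The other 3 did not follow it in both libraries. miR-93 (52.2% GC) and miR-25 (50% GC) lay below their means in trained control replicates 2 and 3, by log2 deviations of −0.17 and −0.11 and of −0.28 and −0.13. miR-20a, with the same GC content as miR-19b, had its lowest level in trained control replicate 2 (8.02 RPM) and stood at 9.98 RPM in replicate 3, above replicate 1 (8.41 RPM). The part of base composition in the members' levels was not tested.

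The relatives outside the 9 members fell into abundant and near-absent ones. miR-92b, which shares the seed AUUGCAC and differs from miR-92a at U10C and G21C, had 418 and 530.2 RPM in the non-trained control and NIPP1* libraries, 451, 764 and 676 RPM in the trained controls and 504 and 407 RPM in trained NIPP1* mice. It stood 3.48-fold above the chromosome 14 locus of miR-92a (SD 0.346, n = 7 libraries), and like miR-92a it was highest in trained control replicates 2 and 3, with a GC content of 63.6%. miR-32, of the same seed and with a GC content of 31.8%, ranged from 35.9 to 66.4 RPM and was lowest in trained control replicate 3. miR-367 had 3 reads in all 7 libraries together. Of the other products of the X chromosome copy, miR-20b had 33 reads in all, miR-363-3p 37 and miR-106a 2, and miR-18b was not analysed here. miR-106a had no read in 5 of the 7 libraries, where 3 reads, taken as an approximate upper 95% limit for a count of 0, are 0.299 to 0.412 RPM.

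The labelled tissue was checked on marker miRNAs, which can show neural tissue but not the hippocampus itself. The 5 neuronal miRNAs (miR-9, miR-124, miR-128, miR-132 and miR-138) had reads in every library and together made up 187293 to 214677 RPM. Other cell types were seen too, and fewer cells of a type and less RNA per cell cannot be told apart in tissue. The 3 red blood cell products (miR-451, miR-144 and miR-144*) summed to 126.5 and 90.1 RPM in the non-trained control and NIPP1* libraries, to 66.2 to 138 RPM in the trained controls, where replicates 2 and 3 were lowest, and to 145 and 272 RPM in trained NIPP1* mice. The 2 oligodendrocyte miRNAs (miR-219-5p and miR-338-3p) summed to 4808 and 3845 RPM, to 2766 to 3299 RPM and to 4123 and 4375 RPM in the same groups. The 4 blood vessel products (miR-126-3p, miR-126-5p, miR-143 and miR-145) summed to 14791 to 18452 RPM, the 5 of leukocytes and microglia (miR-142-3p, miR-142-5p, miR-146a, miR-155 and miR-223) to 808 to 1312 RPM, the 2 of choroid plexus (miR-204 and miR-211) to 400.4 to 1154 RPM and the 5 of epithelium and pituitary (miR-200a, miR-200b, miR-200c, miR-141 and miR-375) to 170.1 to 401 RPM. The part of these cells in the members' levels was not tested. The transgene leaves no trace in small RNA, so expression of the transgene in a library was not checked here.

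The comparison of trained with non-trained controls asked which miRNAs change with object learning. Every trained control was below the non-trained control library for miR-19a, miR-19b and miR-93, and the groups overlapped for miR-20a, miR-25 and miR-92a. Such separation from a single library was common, at 37.4% of the 476 tested miRNAs below it and 55.7% in either direction, against 3 of the 6 tested members. With the labels of the trained groups exchanged, miR-19a, miR-19b and miR-25 were lower in both libraries and miR-20a higher. miR-93 (564 and 579 against 576 RPM) and miR-92a then overlapped. The shares over all miRNAs were not computed for exchanged labels. The values that follow keep the labels as given. The difference, as log2(RPM + 0.5) of trained minus non-trained, was −0.78 for miR-19a (SE 0.36, limma adjusted p = 0.666) and −0.64 for miR-19b (SE 0.34, limma adjusted p = 0.666). For miR-93, the most abundant of the AAAGUGC family, it was −0.26 (SE 0.15, limma adjusted p = 0.666). miR-25 was at −0.21, miR-20a at −0.05 and miR-92a at 0.26, with SEs of 0.20, 0.25 and 0.26. Their limma adjusted p was 0.722, 0.962 and 0.737.

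None of the 6 members passed the limma test in trained controls, as 0 of 476 miRNAs did (0% called at an adjusted p under 0.05). At an unadjusted p under 0.05, limma had 28 miRNAs and no member, edgeR's quasi-likelihood test on recovered reads had 26 with 0 called after adjustment, and DESeq2 had 28 with 1 called, which was no member. The members' median log2 difference was −0.24, with 5 of 6 below 0, against a median of −0.09 and 59.5% below 0 over all 476. The values for miR-19a and miR-19b depended on trained control replicate 1. Without it they were −1.08 (SE 0.15) and −0.93 (SE 0.14), with a limma adjusted p of 0.0721 for each, and leaving out each of the other trained libraries or the non-trained NIPP1* library gave an adjusted p of 0.665 to 0.908 for both. The single non-trained control library could not be left out.

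In NIPP1* mice, 4 of the 6 members, miR-19a, miR-19b, miR-25 and miR-92a as the mean of its loci, were lower in both trained libraries than in the non-trained library, with 39.5% of the tested miRNAs so placed, and miR-20a and miR-93 were higher in both. At the chromosome 14 locus of miR-92a, trained NIPP1* replicate 1 (152 RPM) stood above the non-trained library (151.5 RPM), so the groups overlapped there. Separation in either direction held for 70.2% of all tested miRNAs. The log2 difference was −0.43 for miR-19b (SE 0.36, limma adjusted p = 0.973), −0.19 for miR-19a (SE 0.39, limma adjusted p = 0.999) and 0.14 for miR-93 (SE 0.16, limma adjusted p = 0.981). It was 0.29 for miR-20a, −0.26 for miR-25 and −0.19 for miR-92a, with SEs of 0.26, 0.21 and 0.28. The limma adjusted p was 0.973, 0.973 and 0.999. No member and 0 of 476 miRNAs (0%) passed the limma test, with 21 at an unadjusted p under 0.05. edgeR called 0, with 22 at an unadjusted p under 0.05, and DESeq2 called 2, with 20. Leaving out trained NIPP1* replicate 1 gave −0.35 for miR-92a, 0.19 for miR-20a and −0.12 for miR-19a, and leaving out replicate 2 gave −0.026, 0.39 and −0.26. The median over the members was −0.19, against −0.03 over all tested miRNAs, with 4 of 6 members and 56.1% of all below 0. All of this follows the labels. With the labels of the trained groups exchanged, miR-25 and miR-93 alone of the tested members separated from the non-trained NIPP1* library. Both were then lower, miR-93 at 464 to 487.5 RPM against 519.8 RPM. The shares over all miRNAs were not computed for exchanged labels.

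The comparison of trained NIPP1* mice with trained controls asked what PP1 inhibition adds during learning. Both trained NIPP1* libraries stood above all trained controls for miR-20a and miR-93, and the groups overlapped for the other 4 tested members. Separation in either direction held for 26.5% of the tested miRNAs, most of them higher in trained NIPP1* mice like these members, as 7.77% were lower. miR-93 averaged 571 RPM in trained NIPP1* mice (SD 10.04, n = 2) and 479 RPM in trained controls (SD 13.1, n = 3), a log2 difference of 0.25 (SE 0.12, limma adjusted p = 0.659). miR-20a averaged 11.6 RPM (SD 1.21) and 8.80 RPM (SD 1.04), a log2 difference of 0.39 (SE 0.19, limma adjusted p = 0.659). miR-19a averaged 96.6 RPM (SD 6.70) and 79.3 RPM (SD 30.5), with a log2 difference of 0.34 (SE 0.29, limma adjusted p = 0.730). miR-92a was at −0.32 (SE 0.21), miR-19b at 0.11 (SE 0.27) and miR-25 at 0.06 (SE 0.16), with limma adjusted p of 0.662, 0.938 and 0.940.

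No member and 0 of 476 miRNAs (0%) passed the limma test between the trained genotypes, with 34 at an unadjusted p under 0.05. edgeR called 0 and had 34 at an unadjusted p under 0.05, and DESeq2 called 1 and had 30. The median log2 difference over the members was 0.18, with 1 of 6 below 0, against 0.04 and 43.7% over all. Without trained control replicate 1, the value of miR-19a was 0.64 (SE 0.13) and that of miR-19b 0.40 (SE 0.11), with limma adjusted p of 0.0856 and 0.118. Without trained control replicate 2 or 3, miR-19a was at 0.20 in either case, with limma adjusted p of 0.969 and 0.954, and miR-19b at −0.046 and −0.013. miR-92a went from −0.48 without trained NIPP1* replicate 1 to −0.16 without replicate 2. Every value that rests on a trained group carries a limit. The group means in the deposited tables are matched to within 0.0251% by the libraries labelled as the other trained group and miss those of their own label by 15.6 to 18.2% (root mean square relative error over 319 miRNAs). The labels are followed here. With the labels of the trained groups exchanged, all 6 signs of this comparison turn, which follows from exchanging the groups compared. Training in controls then stood at −0.44 for miR-19a, −0.53 for miR-19b, −0.010 for miR-93, −0.15 for miR-25, 0.33 for miR-20a and −0.058 for miR-92a. Training in NIPP1* mice stood at −0.53, −0.54, −0.12, −0.33, −0.097 and 0.13 for the same members.

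**Figure D5:**
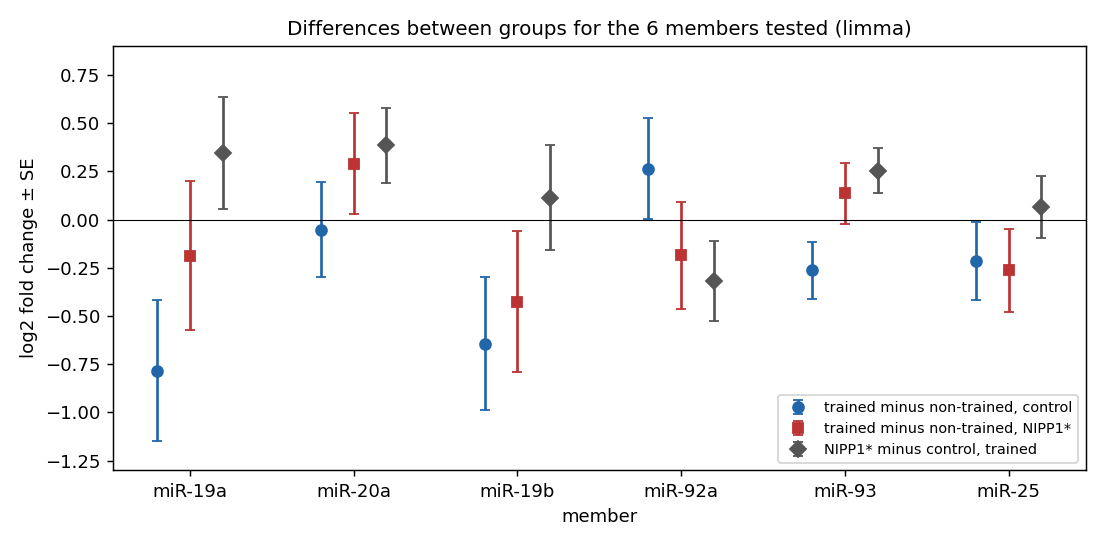
Log2 fold change on the log2(RPM + 0.5) scale (vertical axis, bars show the SE from limma) of the 6 tested members in 3 comparisons, for which the legend names the direction. miR-19a and miR-19b lie at −0.78 and −0.64 for training in controls and at −0.19 and −0.43 in NIPP1* mice, which become −0.44 and −0.53 and −0.53 and −0.54 with the labels of the trained groups exchanged. No member passed the test.

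Over both genotypes, no tested member separated the trained from the non-trained libraries, as 11.6% of the 476 miRNAs did (8.19% lower with training), and none passed the limma test (0 of 476, 0%), with 16 miRNAs at an unadjusted p under 0.05 (edgeR 0 called and 18, DESeq2 1 called and 16). The training effect in NIPP1* mice was set against that in controls by an interaction term, which also called no member and 0 of 476 (0%) by limma, with 37 at an unadjusted p under 0.05 (edgeR 0 called and 37, DESeq2 2 called and 30). Of the 6 tested members, 1, miR-93, was below the non-trained library in every trained control and above it in both trained NIPP1* libraries, as were 13.4% of the 476 miRNAs, with 21.8% on opposite sides in either direction. The lowest adjusted p of a member was 0.873 in the first and 0.720 in the second. These comparisons share libraries with those above.

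The products beside the members gave no calls either. Of the 9 opposite arms, 5 were tested (miR-17*, miR-18a*, miR-92a-1*, miR-106b* and miR-93*), and 0 passed in any of the 5 comparisons, with limma adjusted p of at least 0.666. Of the 3 miRNAs of the seed AUUGCAC at other loci, miR-92b and miR-32 were tested and 0 passed, with limma adjusted p of at least 0.577. None of the X chromosome products other than miR-19b and miR-92a reached the 10 reads required.

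The non-trained libraries were not tested against each other here, as each genotype had 1 library. Their log2 ratios of NIPP1* to control are given with 95% intervals that cover counting error only. The ratio was −0.25 for miR-19a (−0.38 to −0.13), −0.10 for miR-19b (−0.15 to −0.06), −0.15 for miR-93 (−0.21 to −0.09) and 0.11 for miR-25 (0.03 to 0.19). It was 0.09 for the chromosome 14 locus of miR-92a (−0.02 to 0.21) and 0.05 for miR-20a (−0.42 to 0.52). The counting intervals left out 0 for the first 4 and held it for miR-92a and miR-20a, but none of the ratios reached 1 in size, which 3 of 322 miRNAs averaging 100 reads or more did (0.932%). The 3 were miR-182 (3.36), miR-183 (3.42) and miR-34a (−1.03), named after their values were seen.

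The non-members whose profile over the 7 libraries was most like the summed RPM of a cluster were picked by the root mean square difference of centred log2 values among 314 miRNAs. For the miR-17-92 sum they were miR-1983 (0.11), miR-598 (0.11) and miR-362-5p (0.11), against a median of 0.30 over the 314. For the miR-106b-25 sum they were miR-194 (0.04), miR-29c (0.04) and miR-29a* (0.05), against a median of 0.19.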

How the data were processed

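Per the authors' methods and the labels, total RNA was made into TruSeq small RNA libraries, multiplexed and sequenced on a HiSeq instrument, and inserts were mapped to mm9 with Bowtie through the ncPRO-seq pipeline. Per the file headers, which name a range of 19 to 26 nt, the deposited value of each mature locus is its percent of all miRNA reads. The submitters' processing notes also name CASAVA 1.7.0 and bedtools. The authors' comparison tables hold normalized signal per group, of which the single-library columns were used for names, with whole counts recovered for 100% of values (within 0.1 read), and the means for the check of labels. The deposited fold changes, p-values, adjusted p-values and variance scores in these tables were not used, nor were 2 columns of values per library.

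Percents were turned into RPM, and reads were recovered from the steps of low values (100% whole within 0.1 read). The 806 loci gave 756 mature sequences, with copies of 1 sequence averaged as in the tables, and 687 of the 706 ids seen in the non-trained libraries were joined by RefSeq names, reads and hairpins. Limma (3.58.1) with a trend was fitted to log2(RPM + 0.5) of all 7 libraries for 476 miRNAs averaging 10 reads or more, with the spread taken from the trained groups, and a fold change on this scale understates that of low miRNAs. Benjamini-Hochberg adjustment ran over all 476, at 0.05, and scripts were tested on simulated data. Alternatives were TMM and DESeq2 scaling, edgeR (4.0.16) and DESeq2 (1.42.0) on recovered reads, other pseudocounts and minimums, exchanged labels, fewer groups, leaving out libraries and, added after the data were seen, the highest copy. R 4.3.3, Python 3.11.15, numpy 2.4.6, pandas 2.3.3 and scipy 1.17.1 were used.

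Named are all 9 members, their opposite arms, the X chromosome copy, miRNAs of the same seeds at other loci, and for each cluster sum the 3 non-members with the most similar profile. Members, lists and tests were chosen with earlier results of these data known.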

Additional observations from a re-analysis of the deposited data

Results flagged for a closer look

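miR-93 and miR-18a were picked out because every trained control lay below the non-trained control, while every trained NIPP1* library lay above the non-trained NIPP1* library. This placement was common, at 13.4% of the 476 tested miRNAs and 21.8% with the opposite one counted too, against 1 of the 6 tested members. For miR-93 the training effect in NIPP1* mice exceeded that in controls by 0.40 on the log2 scale (SE 0.22), which did not pass the limma test of the interaction (adjusted p = 0.720), and with the labels of the trained groups exchanged the value was −0.11. For miR-18a the same difference of mean log2(RPM + 0.5) was 0.87 with the labels as given and −1.04 with those of the trained groups exchanged. It rests on 3 to 16 reads per library and was not tested.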

How the results depend on the processing

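No member was called under any of the alternatives run. The count of called miRNAs, 0 in each tested comparison, was 0 in all of them except with DESeq2's Wald test, which called 1 miRNA for training in controls (miR-129-2-3p), 2 for training in NIPP1* mice (miR-136 and miR-146a), 1 for genotype in trained mice (miR-344d-3*), 1 for training over both genotypes (miR-129-2-3p) and 2 for the difference of the training effect (miR-136 and miR-344d-3*), all named after their values were seen. Between the non-trained libraries, 14 miRNAs passed a log2 ratio of 1 with a minimum of 10 reads, against 3 with 100. The cause was not tested.

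Of the single members' log2 differences, 205 stayed on their side of 0 under the alternatives other than leaving out 1 library and 18 did not. For miR-20a in trained controls the value was 0.0025 with TMM, 0.032 with DESeq2 size factors, 0.042 with edgeR, 0.047 with DESeq2's test and 0.33 with the labels exchanged. Between the trained genotypes, edgeR gave −0.014 for miR-19b and −0.019 for miR-25. With the labels exchanged, miR-92a was at −0.058 for training in controls and 0.13 in NIPP1* mice, where miR-20a was at −0.10 and miR-93 at −0.12. Between the genotypes the exchanged values were −0.34 for miR-19a, −0.39 for miR-20a, −0.11 for miR-19b, 0.32 for miR-92a, −0.25 for miR-93 and −0.064 for miR-25, and for the difference of the training effect in miR-93 −0.11. The turns between the genotypes are counted in the 18, although exchanging the groups compared fixes them in advance.

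Without a turn of sign, DESeq2 size factors, edgeR and DESeq2's test brought training in controls to −0.13, −0.11 and −0.11 for miR-25 and to −0.18, −0.17 and −0.17 for miR-93. Between the trained genotypes edgeR gave 0.21 for miR-19a, DESeq2 size factors and DESeq2's test gave 0.060 and 0.0088 for miR-19b and 0.012 and 0.0025 for miR-25, and TMM gave 0.037 for miR-25.

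Leaving out 1 library turned 4 of 119 values. The range was −0.14 to 0.0080 for miR-20a in trained controls, −0.046 to 0.40 for miR-19b and −0.028 to 0.17 for miR-25 between the trained genotypes. For miR-92a it was −0.48 to −0.16 between the trained genotypes, −0.35 to −0.026 for training in NIPP1* mice and 0.16 to 0.42 in controls, and for miR-25 in controls −0.32 to −0.12. Where this left a group with 1 library, that library was assumed to vary like the other groups. No paired analysis was possible because the labels pair no libraries between groups. The replicate numbers used here only number the libraries within a group.

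With the highest copy of each sequence in place of the mean, miR-92a was at 0.22 for training in controls, −0.16 in NIPP1* mice and −0.29 between the trained genotypes. At 3 to 16 reads per library, miR-17, miR-18a and miR-106b entered no test.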
